A study of Homo sapiens with 9 samples.

Results

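Kinesins are motor proteins that move along microtubules, or take them apart, with the energy of ATP. Mitotic kinesins build and focus the spindle, align chromosomes and form the midzone through which a cell divides, and in dividing cells their messages are known to be highest late in the cell cycle. Transport kinesins carry vesicles, mitochondria and other cargo in cells that need not divide, and further members serve cilia or trim microtubule ends. The family was taken by name, as every gene called KIF with a number and an optional letter, or KIFC1, KIFC2 or KIFC3. That rule found 40 of the 32378 genes in the deposited table. They were divided by known role into 13 mitotic, 15 transport and 12 ciliary, depolymerizing and other kinesins. The rule reads names, so CENPE, a kinetochore kinesin with another name, stands among the mitotic partners below.

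SKOV3, a long-established line of human ovarian cancer cells, was profiled by RNA sequencing in 3 groups with 3 libraries in each. The Carbo+COM33 group received both agents, the Carbo group received Carbo, and the control group is labelled control with no further detail. The design text, which asks how COM33 makes cells more sensitive to carboplatin, is the ground for taking Carbo to be that DNA-crosslinking platinum drug. COM33 is known only by its code name, no group received COM33 alone, and the labels give no dose and no time. Each group therefore comes from 1 cell line, and an effect of COM33 can be seen only on top of Carbo. The labels do not say whether replicate numbers mark separate cultures, so all p-values measure only how these samples spread, and that spread may be technical. In bulk RNA, more cells in mitosis and more of a message per cell cannot be told apart.

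Total counts ran from 13851760 to 15533668 per library, and 16450 genes passed the filter on low counts. Of the 10 SKOV3 and epithelial markers, ERBB2 (1480 to 2530 CPM, counts scaled to library size), KRT8 (298 to 417 CPM) and PAX8 (281 to 530 CPM) were abundant in all 9 libraries. KRT19 (292 to 379 CPM), KRT7 (116 to 367 CPM) and KRT18 (97.8 to 147 CPM) were also well detected. EPCAM (15.8 to 23.1 CPM) was lower, and MUC16 (1.07 to 2.8 CPM) and WT1 (1.38 to 2.35 CPM) were low. CDH1, the epithelial cadherin, had 11 counts in all. The 10 summed to between 2838 and 3248 CPM in Carbo+COM33 libraries, between 3692 and 4002 CPM in Carbo and between 3859 and 4034 CPM in control. Markers of blood and immune cells summed to at most 1.46 CPM and those of endothelium to at most 2.14 CPM in any library. The 5 fibroblast markers, mostly COL1A1, summed to 6.03, 12.6 and 10.5 CPM in Carbo+COM33 libraries 1 to 3, to 10.1, 39.8 and 37.3 CPM in Carbo libraries and to 10.1, 39.8 and 36.8 CPM in control libraries. The 4 nerve markers, carried by SYT1 and MAP2 with SNAP25 at 2 counts in all, summed to between 84.4 and 97.0 CPM in Carbo+COM33 libraries, between 51.0 and 61.0 CPM in Carbo libraries and between 59.3 and 66.3 CPM in control libraries. The 5 multiciliated cell markers summed to between 5.29 and 10.0 CPM in Carbo+COM33, between 10.7 and 16.5 CPM in Carbo and between 10.2 and 15.9 CPM in control, with FOXJ1 at 5 counts in all. The part of these marker levels in the kinesin results was not tested.

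CHR and CCAAT elements, spelled out below, are known from promoters of genes that are active late in the cell cycle. The promoters of the kinesins were set beside one another because the tested mitotic members had a common order among the Carbo libraries. They had no common order in the other groups, and a part of these elements in the levels was not tested. RefSeq promoter windows (build GRCh38.p14, from 250 bases before to 50 after each annotated start) were matched by symbol for 33 of the 40 genes, in 42 windows. Genes with no entry were KIF5A, KIF13B, KIF21B, KIF26B, KIF27, KIFC2 and KIFC3. On either strand, a match of CCAAT was searched, and a match of the cell-cycle homology region (CHR), read as TTTGAA or as the variant TTTAAA. No match of one overlapped a match of another. The 6 windows printed run from 100 bases before to 30 after the start, 5′ to 3′ on the gene's own strand, with matches in capitals: CCAAT or its complement, written as ATTGG, and the CHR in either variant, or written as TTCAAA on the other strand. They show KIF18A, KIF23 and KIF20A, which had the highest positive paired log2 fold changes in Carbo, KIF18B and KIFC1, which were lower in Carbo+COM33, and KIF5B, the most abundant transport kinesin, for contrast.
KIF18A: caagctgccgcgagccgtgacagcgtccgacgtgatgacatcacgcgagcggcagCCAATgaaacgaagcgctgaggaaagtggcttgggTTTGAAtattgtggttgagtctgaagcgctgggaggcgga
KIF23: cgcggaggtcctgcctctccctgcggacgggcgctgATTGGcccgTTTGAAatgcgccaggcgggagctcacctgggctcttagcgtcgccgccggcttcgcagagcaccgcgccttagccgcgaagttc
KIF20A: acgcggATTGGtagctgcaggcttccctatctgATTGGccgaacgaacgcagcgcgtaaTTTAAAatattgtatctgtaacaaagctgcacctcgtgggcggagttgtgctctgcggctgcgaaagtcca
KIF18B: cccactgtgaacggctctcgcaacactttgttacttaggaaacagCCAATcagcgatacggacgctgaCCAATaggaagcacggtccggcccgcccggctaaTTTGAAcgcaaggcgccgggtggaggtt
KIFC1: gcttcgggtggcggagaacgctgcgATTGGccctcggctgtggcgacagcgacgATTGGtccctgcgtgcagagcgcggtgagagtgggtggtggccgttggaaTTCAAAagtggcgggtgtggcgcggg
KIF5B: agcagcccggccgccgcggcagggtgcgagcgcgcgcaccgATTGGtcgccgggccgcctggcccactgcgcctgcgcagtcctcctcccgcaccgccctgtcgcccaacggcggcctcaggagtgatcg
These windows lie at chr11:28108127-28108256 (minus strand) for KIF18A, chr15:69414249-69414378 (plus strand) for KIF23 and chr5:138179012-138179141 (plus strand) for KIF20A. Those of KIF18B, KIFC1 and KIF5B lie at chr17:44947744-44947873 (minus strand), chr6:33391723-33391852 (plus strand) and chr10:32056396-32056525 (minus strand). In each of the 5 mitotic windows a CCAAT match stands upstream of a CHR match, with the CHR close to the start. KIF5B carries a CCAAT match here and its CHR match farther upstream, 140 bases before the start.

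Over the full windows, a CHR match stood in 12 of 14 mitotic windows (85.7%), in 2 of 16 transport windows (12.5%, KIF5B and KIF16B) and in 0 of 12 windows of the other kinesins. Of all 35116 promoters in the reference table, 24% held one. Among mitotic genes, KIF22, a chromokinesin, was the one of 13 without a CHR match. A CCAAT match stood in 11 of 14 mitotic windows (78.6%), 5 of 16 transport windows (31.2%) and 4 of 12 others (33.3%), beside 34.6% of all promoters. Both motifs together stood in 10 of 14 mitotic windows (71.4%), 1 of 16 transport windows (6.25%, KIF5B) and 0 of 12 others, beside 9.27% of all promoters. An E2F-type match (TTTCCCGC or TTTGGCGC) stood in the windows of KIF15 and KIF25 among the kinesins, and in 2.27% of all promoters. A match describes these letters in these windows and does not show that a factor binds there.

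**Figure D1:**
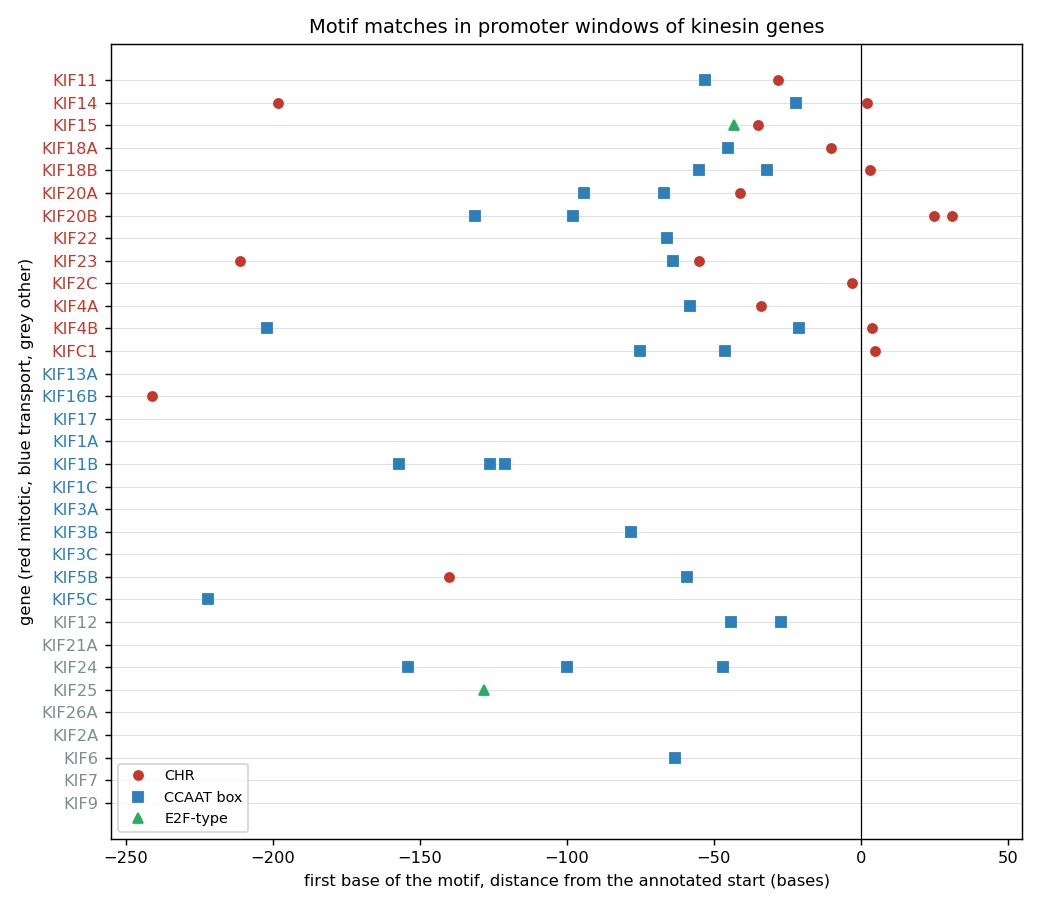
Position of each motif match (first base, in bases from the annotated RefSeq start, horizontal) in the promoter windows of 33 kinesin genes (rows, red mitotic, blue transport, grey other); circles are CHR, squares CCAAT and triangles E2F-type matches. CHR matches cluster around the start in the mitotic rows, and 2 transport genes have one, 140 or more bases before the start.

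Per length, in the deposited FPKM values (counts scaled to library size and per kilobase of exons, so that genes can be ranked), KIF5B was the most abundant kinesin. This heavy chain of conventional kinesin, which carries mitochondria and vesicles, had a level of 109.9 ± 8.11 FPKM in Carbo+COM33, 112.7 ± 3.13 FPKM in Carbo and 94.96 ± 2.91 FPKM in control (SD, n = 3 each). Its mean over 9 libraries was 105.9 FPKM, against 26.0 FPKM for KIF1C, a vesicle motor and the next in order. KIF3B (21.6 FPKM), a kinesin-2 motor subunit, KIFC3 (21.2 FPKM), a minus-end motor, and KIF2C (20.3 FPKM), the centromere depolymerase, followed closely. KIF23 had 18.8 FPKM, and the other mitotic kinesins that passed the filter lay between 3.29 FPKM (KIF15) and 12.3 FPKM (KIF18B). At the low end stood KIF6 (0.084 FPKM), KIF1A (0.032 FPKM), a neuronal vesicle motor, and KIF4B (0.011 FPKM).

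Of the 40 genes, 38 passed the filter, and KIF4B and KIF25 did not. KIF4B, a retrocopy nearly identical to KIF4A, had 1, 3 and 0 counts in Carbo+COM33, 0 in each Carbo library and 2, 0 and 0 counts in control, so reads of the pair may be misassigned. KIF25 had 39 counts over all libraries. Strandedness of the counting is not given in the sources used here, so genes that overlap others are uncertain: KIF9 shares 14.9% of its exon bases with the antisense gene KIF9-AS1, which had 660 counts over 9 libraries beside 464 for KIF9. KIF7 shares 11.8% with TICRR on the opposite strand, and KIF20A shares 3.34% with BRD8 and 1.72% with CDC23. KIF2A shares 8.97% with IPO11 on the same strand (4892 counts over 9 libraries), so strandedness would not separate these 2 genes.

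**Figure D2:**
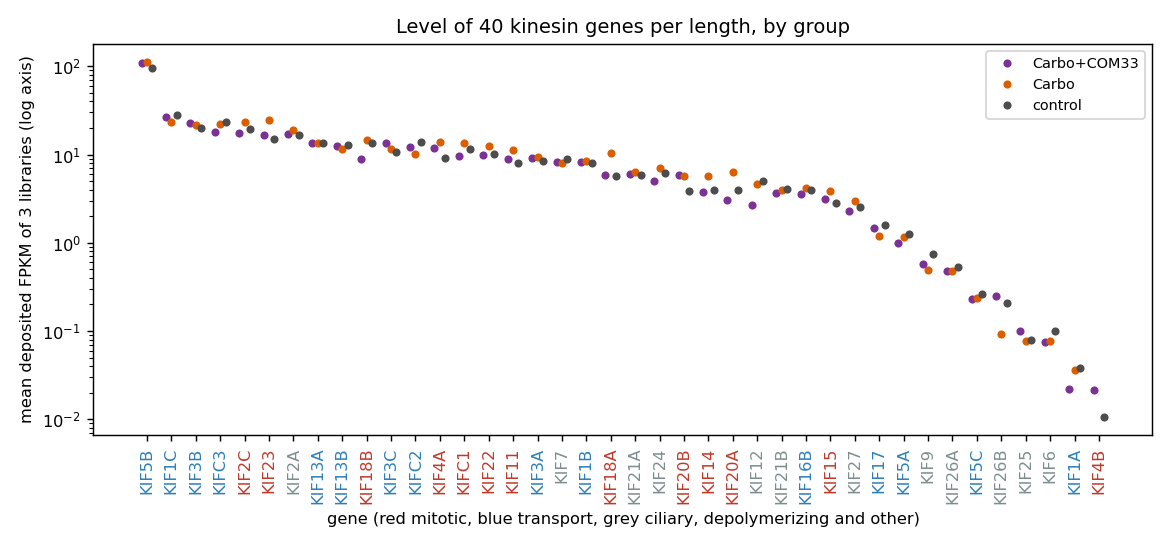
Mean deposited FPKM of 3 libraries (vertical, log axis) for the 40 kinesin genes in order of their mean over 9 libraries; violet is Carbo+COM33, orange Carbo and dark grey control. KIF5B stands highest at 105.9 FPKM over all libraries; KIF4B in Carbo is at 0 and has no point.

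In Carbo against control, the mitotic kinesins stood higher together while the transport kinesins had no common direction. The log2 fold change was positive for all 12 tested mitotic kinesins (median 0.50), beside a median of 0.000946 over all 16450 genes. Median log2 fold changes were −0.08 for the 15 transport kinesins and −0.11 for the 11 others, and the last turned to 0.08 with the GC and length trends described below taken out. In the unpaired edgeR quasi-likelihood fit with Benjamini-Hochberg adjustment, 0 of 38 kinesins were called, beside 0 of 16450 genes (0%). At an unadjusted p under 0.05 that fit held 17 kinesins and 2748 genes, and DESeq2 called KIF18A, KIF23 and KIF4A upward among 132 genes. Replicate numbers pair the control and Carbo libraries by their deviations (the correlations are given with the processing), so the same test was also run with a block term for the replicate number. In that paired edgeR fit on the 6 control and Carbo libraries 17 of 38 kinesins were called, beside 22.7% of all genes. Of these 17, 12 were higher (11.2% of all genes were) and 5 lower (11.5% of all genes were). With the block term over all 9 libraries, edgeR called 0 kinesins and 0 genes.

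By role, 10 of 12 mitotic kinesins rose in the paired fit and 0 fell. KIF18B (log2 fold change 0.09, adjusted p = 0.44, edgeR) and KIFC1 (0.24, adjusted p = 0.053) did not pass. Of 15 transport kinesins 1 rose and 3 fell, and of the 11 others 1 rose and 2 fell. Carbo and control libraries did not overlap, with Carbo higher, in 7 mitotic kinesins and 2 transport kinesins, beside 10.8% of all genes. They did not overlap with Carbo lower in 0 mitotic kinesins, 2 transport kinesins and 2 others, beside 11.7% of all genes. Paired calls rested on 2 residual degrees of freedom among samples: without replicate 1, 2 or 3 they numbered 21, 13 and 11 kinesins. All genes called in these fits numbered 4338, 1597 and 2842, against 3739 with all 3 replicates. Without Carbo 1, the unpaired fit called 11 kinesins, 9 of them mitotic and higher, beside 1034 of all genes. With all 9 libraries it called 0 kinesins and 0 genes.

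KIF18A (ENSG00000121621, chr11:28020620-28108308) damps chromosome movement at the metaphase plate and had the highest positive log2 fold change of the 38 tested kinesins in the paired fit. Its levels were 33.2, 45.7 and 66.8 CPM in Carbo 1 to 3, against 22.1, 26.6 and 30.7 CPM in control 1 to 3. Each Carbo library stood above all 3 control libraries, and in both groups library 1 was the lowest and library 3 the highest. Its paired log2 fold change was 0.84 ± 0.09 (SE, n = 3 pairs; edgeR adjusted p = 8.88e-06), and the unpaired one 0.87 ± 0.22 (adjusted p = 0.22).

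KIF23 (ENSG00000137807, chr15:69414246-69448427), the motor of centralspindlin that organizes the midzone for cytokinesis, was the most abundant mitotic kinesin in CPM. It had 104, 166 and 216 CPM in Carbo, against 86.8, 96.3 and 113 CPM in control. Carbo 2 and 3 were above every control library, and Carbo 1 lay between control 2 and control 3. The paired log2 fold change was 0.67 ± 0.08 (n = 3 pairs; edgeR adjusted p = 4.67e-05).

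KIF20A (ENSG00000112984, chr5:138178719-138187715), which brings the chromosomal passenger complex to the midzone, had 17.9, 22.4 and 34.4 CPM in Carbo, against 15.9, 14.3 and 17.0 CPM in control. Carbo libraries did not overlap control, though Carbo 1 exceeded control 3 narrowly. KIF20B (ENSG00000138182, chr10:89701610-89774939), a slow motor of cytokinesis and abscission, had 34.4, 36.1 and 45.6 CPM in Carbo, against 28.7, 22.5 and 27.1 CPM in control, again with no overlap. Paired log2 fold changes were 0.63 ± 0.12 for KIF20A (edgeR adjusted p = 0.00155) and 0.56 ± 0.09 for KIF20B (adjusted p = 0.000353).

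KIF4A (ENSG00000090889, chrX:70290090-70420832), a chromokinesin that shapes chromosome arms and limits midzone length, had 53.7, 56.2 and 79.1 CPM in Carbo, against 40.9, 41.1 and 42.9 CPM in control. The control libraries were tight and the lowest Carbo library stood well above them. KIF11 (ENSG00000138160, chr10:92593286-92655395), the bipolar motor that pushes spindle poles apart and the target of kinesin inhibitors, had 41.6, 50.2 and 71.0 CPM in Carbo, against 38.2, 37.6 and 41.8 CPM in control. Carbo 1 fell just under control 3, so the groups overlapped by 1 library. Paired log2 fold changes were 0.58 ± 0.08 for KIF4A (edgeR adjusted p = 0.000121) and 0.44 ± 0.09 for KIF11 (adjusted p = 0.00204). The remaining mitotic risers were KIF14 (0.51), a cytokinesis motor, KIF15 (0.43), a spindle motor that backs up KIF11, KIF22 (0.32), a chromokinesin, and KIF2C (0.25).

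KIF18B (ENSG00000186185, chr17:44924709-44947711), which trims astral microtubules, and KIFC1 (ENSG00000237649, chr6:33391536-33409924), the minus-end motor that clusters spindle poles, were the 2 tested mitotic kinesins that the paired fit did not call. The paired log2 fold change of KIFC1 (0.24 ± 0.09) was close to that of KIF2C (0.25 ± 0.07), which was called. KIF18B had 56.7, 69.3 and 75.2 CPM in Carbo, against 65.9, 61.5 and 60.03 CPM in control, and KIFC1 had 38.5, 44.7 and 52.6 CPM in Carbo, against 40.3, 35.9 and 37.8 CPM in control. In both genes Carbo 1 fell within or under the control libraries while Carbo 2 and 3 were above them.

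The mitotic kinesins followed the Carbo libraries one by one. Carbo 3 was the highest and Carbo 1 the lowest of the 3 Carbo libraries for 12 of 12 tested mitotic kinesins, and Carbo 3 was the highest of all 9 libraries for 11 of them. Of the 15 transport kinesins, 9 were highest in Carbo 1 and 4 in Carbo 3 among Carbo libraries, while 9 were lowest in Carbo 3 and 4 in Carbo 1. How many of all genes have either order was not counted. Summed over the 13 mitotic genes, levels were 552.1, 679.7 and 881.6 CPM in Carbo 1 to 3, against 495.9, 489.2 and 533.7 CPM in control 1 to 3. Transport kinesins summed to 1877, 1842 and 1847 CPM in Carbo, against 1847, 1782 and 1798 CPM in control, a narrower spread of the sum. KIF5B is the largest part of that sum, and some members varied in opposite directions. In Carbo 1 to 3, KIFC3 had 163.5, 237.3 and 230.2 CPM and KIFC2 had 56.3, 43.9 and 34.5 CPM. The mitotic genes share libraries and are not independent replicates, so this common order is that of 3 libraries.

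**Figure D3:**
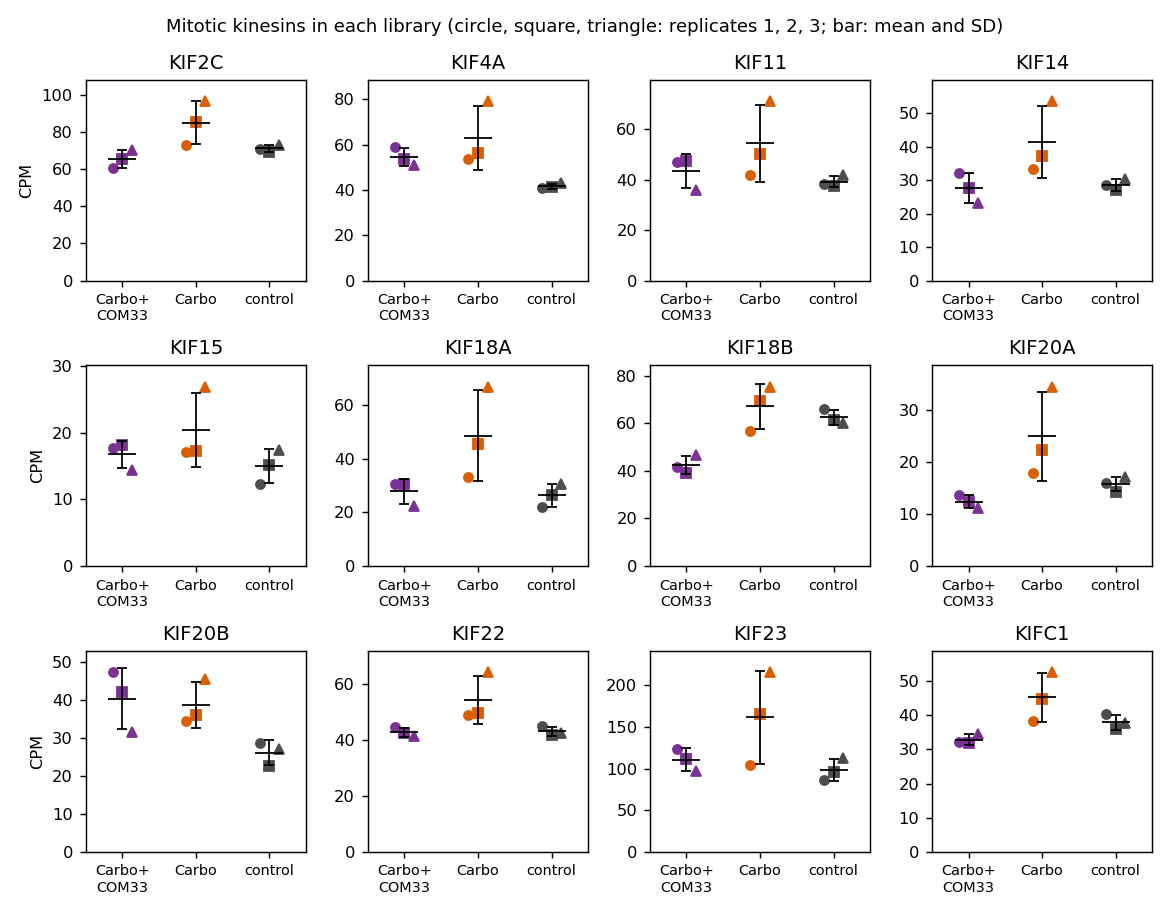
Level of the 12 tested mitotic kinesins in each library (CPM, vertical, from 0; circle, square and triangle for replicates 1, 2 and 3; bars are the mean and SD of 3 libraries), with Carbo+COM33 left, Carbo in the middle and control right. Carbo 3 is the highest Carbo library in each panel, and in KIF18B the Carbo+COM33 libraries lie below both other groups.

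Among transport kinesins, KIF5B (ENSG00000170759, chr10:32009010-32056431) was the one that rose in Carbo. It had 661.7, 634.1 and 678.5 CPM in Carbo, against 556.8, 536.1 and 571.7 CPM in control. The groups did not overlap, and the paired log2 fold change was 0.24 ± 0.04 (edgeR adjusted p = 0.000641). KIF1B (ENSG00000054523, chr1:10210805-10381603), a motor of mitochondria and synaptic vesicle precursors, had 163.0, 145.4 and 142.1 CPM in Carbo, against 150.4, 146.6 and 131.5 CPM in control, with the groups intermixed. Its paired log2 fold change was 0.07 ± 0.05 (adjusted p = 0.35). KIF1C (−0.27), KIF13B (−0.18), a vesicle motor, and KIFC2 (−0.46), a minus-end motor, fell in the paired fit. KIF17 (ENSG00000117245, chr1:20664014-20718017), a kinesin-2 motor known from the cilia and dendrites of mouse neurons, had 6.85, 4.83 and 4.32 CPM in Carbo, against 6.85, 7.51 and 7.10 CPM in control. Carbo 2 and 3 were lower than every control library, and Carbo 1 nearly equalled control 1. KIF17's paired log2 fold change of −0.44 ± 0.18 did not pass (adjusted p = 0.083).

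The lowest log2 fold changes of Carbo against control belonged to KIF26B and KIF9, both at low levels. KIF26B (ENSG00000162849, chr1:245154985-245709431), an atypical kinesin known from mice for a role in kidney development, had 27, 10 and 22 counts in Carbo, against 66, 37 and 29 counts in control. That is 1.81, 0.635 and 1.53 CPM in Carbo, against 4.57, 2.46 and 1.98 CPM in control, with each Carbo library under every control library. Its paired log2 fold change was −1.18 ± 0.31 (edgeR adjusted p = 0.0113). KIF9 (ENSG00000088727, chr3:47228026-47283451), a motor of motile cilia known mostly from mice and algae, had 2.75, 3.69 and 2.02 CPM in Carbo, against 4.64, 4.25 and 4.17 CPM in control, also apart. Its paired log2 fold change was −0.64 ± 0.22 (adjusted p = 0.0488), with the uncertainty from KIF9-AS1 named above. KIF2A, a depolymerase at spindle poles, was the single riser among the others (paired log2 fold change 0.18), with the overlap with IPO11 named above.

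GC content moved with the fold change of Carbo against control over the whole table (Pearson r = −0.462 across 16450 genes, which share libraries and are not replicates). Within the classes r was −0.717 (mitotic), −0.745 (transport) and −0.239 (other). By ranks (Spearman) the values were −0.532 over all genes, −0.629 (mitotic), −0.636 (transport) and −0.555 (other). In Carbo+COM33 against control r was −0.283 over all genes and −0.529 over the 38 kinesins, and in Carbo+COM33 against Carbo it was 0.084 and 0.143. Mitotic kinesins had a median GC content of 44.3%, transport kinesins 51.4%, the other kinesins 51.8% and all tested genes 48.3%. With smooth trends on GC content and exon length taken out of each library, the paired edgeR fit called 14 kinesins, beside 10.5% of all genes. The 12 higher ones (5.54% of all genes were higher) were 11 of 12 mitotic kinesins and KIF3C, and the 2 lower ones (4.92% of all genes were lower) were KIF1C and KIF26B. KIF18B (0.25, adjusted p = 0.0411) and KIFC1 (0.39, adjusted p = 0.00351) entered the calls with KIF3C, while KIF15 (0.30, adjusted p = 0.0737) and KIF5B (0.09, adjusted p = 0.22) left them, as did KIF2A, KIF9, KIF13B and KIFC2. The mitotic median was 0.38 and the transport median −0.02 in that fit. KIF18A kept a log2 fold change of 0.66 and KIF23 one of 0.56.

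**Figure D4:**
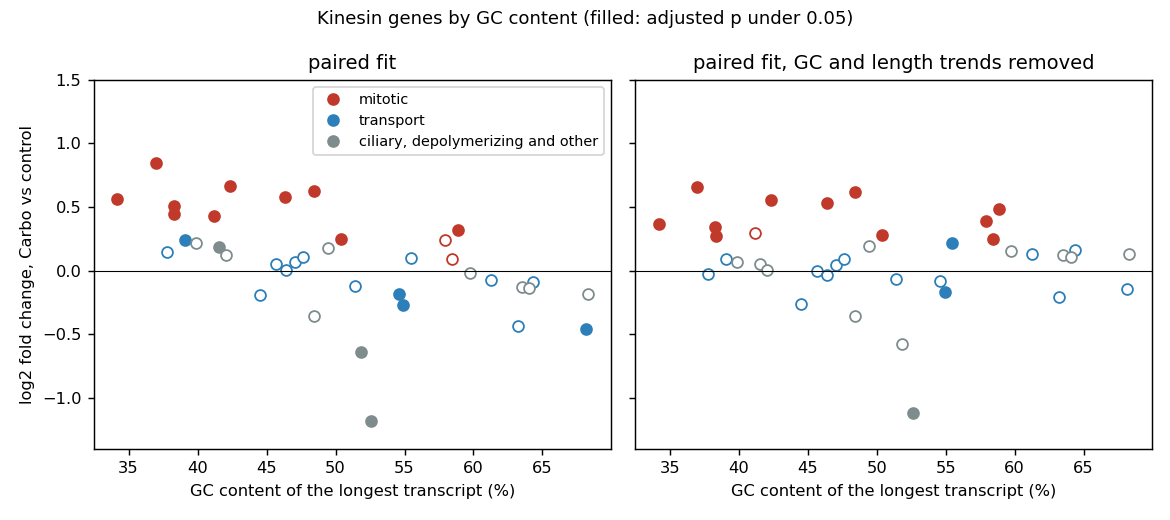
Log2 fold change of Carbo against control (vertical) by GC content of the longest transcript (horizontal, %) for 38 kinesins, in the paired fit (left) and with GC and length trends taken out (right); filled points have an adjusted p under 0.05. The 12 mitotic kinesins (red) stay above 0 in both panels, with medians of 0.48 and 0.38.

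In Carbo+COM33 against Carbo, 3 kinesins were called and all were mitotic and lower: KIF18B, KIF20A and KIFC1. Of all genes 4.96% were called, 2.53% lower and 2.43% higher. Of 12 mitotic kinesins 11 had a negative log2 fold change, with a median of −0.42, beside −0.01 over all genes; the 15 transport kinesins had a median of 0.01 and none was called. Carbo+COM33 lay wholly below Carbo in 7 mitotic kinesins, 1 transport kinesin and 1 other, beside 11.9% of all genes. It lay wholly above Carbo in 0 mitotic kinesins, 3 transport kinesins and 1 other, beside 11.7% of all genes. This comparison shares its Carbo libraries with the one before, so a high Carbo 3 enters both.

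KIF18B had 41.5, 39.1 and 46.7 CPM in Carbo+COM33, against 56.7, 69.3 and 75.2 CPM in Carbo. Every Carbo+COM33 library lay below every Carbo library, and also below all 3 control libraries (65.9, 61.5 and 60.03 CPM). Its log2 fold change was −0.66 ± 0.11 against Carbo (edgeR adjusted p = 0.00644) and −0.56 ± 0.11 against control (adjusted p = 0.0154).

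KIF20A had 13.7, 12.3 and 11.2 CPM in Carbo+COM33, against 17.9, 22.4 and 34.4 CPM in Carbo, a log2 fold change of −1.01 ± 0.20 (edgeR adjusted p = 0.0144). KIFC1 had 32.1, 31.8 and 34.6 CPM in Carbo+COM33, against 38.5, 44.7 and 52.6 CPM in Carbo, a log2 fold change of −0.46 ± 0.11 (adjusted p = 0.037). In both genes the 3 Carbo+COM33 libraries were close together and below every library of Carbo and of control, but neither was called against control (adjusted p = 0.33 for KIF20A and 0.28 for KIFC1).

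Several mitotic kinesins lay near the threshold in this comparison without passing it. KIF18A had 30.4, 30.7 and 22.4 CPM in Carbo+COM33, against 33.2, 45.7 and 66.8 CPM in Carbo (log2 fold change −0.80 ± 0.22, edgeR adjusted p = 0.0518). KIF2C (−0.38, adjusted p = 0.0532), KIF14 (−0.58, adjusted p = 0.0644) and KIF22 (−0.34, adjusted p = 0.0857) did not overlap between the groups either. KIF23 had 124, 111 and 96.8 CPM in Carbo+COM33, against 104, 166 and 216 CPM in Carbo (−0.55, adjusted p = 0.13). KIF11 had 47.0, 47.4 and 35.7 CPM in Carbo+COM33, against 41.6, 50.2 and 71.0 CPM in Carbo (−0.32, adjusted p = 0.28). KIF4A had 59.0, 53.8 and 50.9 CPM in Carbo+COM33, against 53.7, 56.2 and 79.1 CPM in Carbo (−0.21, adjusted p = 0.38). In these last 3 genes Carbo 1 lay among the Carbo+COM33 libraries and Carbo 3 far above them.

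KIF20B was the exception among mitotic kinesins, with 47.3, 42.2 and 31.5 CPM in Carbo+COM33, against 34.4, 36.1 and 45.6 CPM in Carbo. The groups were fully intermixed, and the log2 fold change was 0.06 ± 0.15 (edgeR adjusted p = 0.86).

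The calls depended on single libraries, for kinesins as for all genes, of which 816 were called with all 9 libraries. Without Carbo 2 none of the 38 kinesins was called, beside 120 of all genes. Without Carbo 1 there were 15, of which 9 were mitotic and lower, beside 2721 of all genes. Without Carbo 3, Carbo+COM33 1, control 2 or control 3, KIF18B and KIF20A were the 2 called. All genes called numbered 262, 234 and 509 without the first 3 of these. Without Carbo+COM33 2 or Carbo+COM33 3, KIF18B alone was called, beside 239 and 488 genes, and without control 1 there were 5. DESeq2 called 9 kinesins, beside 9.33% of the 14536 genes with a DESeq2 adjusted p. With GC and length trends taken out edgeR called 7, beside 7.59% of all genes, and KIF18B, KIF20A and KIFC1 were in both sets. With the replicate block in the 6 libraries of these groups, which the numbers do not pair, KIF18B was called but KIF20A (adjusted p = 0.0534) and KIFC1 (adjusted p = 0.093) were not. KIFC1 also left the calls in 6 unpaired libraries, with GC and length trends taken out in the block fit (adjusted p = 0.0582), and in limma on log2(FPKM + 1).

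Outside the mitotic group, KIF26B had the highest log2 fold change of Carbo+COM33 against Carbo. It had 4.78, 2.86 and 3.39 CPM in Carbo+COM33, from 65, 41 and 49 counts, against 1.81, 0.635 and 1.53 CPM in Carbo. Every Carbo+COM33 library lay above every Carbo library and among or above those of control, and the log2 fold change was 1.47 ± 0.40 (edgeR adjusted p = 0.0517). KIF26B was called higher by DESeq2, with no filter on low counts, in 6 unpaired libraries, with the replicate block in 6 (adjusted p = 0.0318) or 9 libraries, and with GC and length trends taken out, without the block (adjusted p = 0.042) or with it (adjusted p = 0.0198), but not with RLE size factors or in either FPKM fit. KIF17 was next, with 6.62, 6.97 and 6.29 CPM in Carbo+COM33, against 6.85, 4.83 and 4.32 CPM in Carbo (0.31, adjusted p = 0.34). KIF12 (ENSG00000136883, chr9:114086126-114099291), an epithelial kinesin of liver and kidney, had 6.54, 8.71 and 9.68 CPM in Carbo+COM33, against 8.66, 17.5 and 15.3 CPM in Carbo (−0.73, adjusted p = 0.11). Carbo 1 lay just under the middle Carbo+COM33 library, so the groups overlapped. Of the abundant transport motors, KIF5B had 687.2, 679.6 and 596.2 CPM in Carbo+COM33, against 661.7, 634.1 and 678.5 CPM in Carbo (−0.01 ± 0.08, adjusted p = 0.97). KIF1B had 154.2, 140.3 and 147.3 CPM in Carbo+COM33, against 163.0, 145.4 and 142.1 CPM in Carbo (−0.03 ± 0.08, adjusted p = 0.88). Both were intermixed between the groups.

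In Carbo+COM33 against control, 3 kinesins were called: KIF20B and KIF3C were higher and KIF18B lower. Of all genes 6.29% were called, 3.2% higher and 3.09% lower. The GC contents of KIF20B, KIF3C and KIF18B were 34.2%, 55.5% and 58.4%. With GC and length trends taken out the same 3 were called, beside 3.62% of all genes higher and 2.29% lower. The 12 mitotic kinesins divided evenly, 6 positive and 6 negative, with a median log2 fold change of 0.03, beside −0.01 over all genes. The transport median was −0.06, and with GC and length trends taken out these medians were −0.02 (mitotic) and 0.04 (transport). Carbo+COM33 lay wholly above control in 2 mitotic and 3 transport kinesins, beside 14.3% of all genes, and wholly below it in 3 mitotic kinesins and 4 others, beside 14.4% of all genes.

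KIF20B had 47.3, 42.2 and 31.5 CPM in Carbo+COM33, against 28.7, 22.5 and 27.1 CPM in control, a log2 fold change of 0.63 ± 0.16 (edgeR adjusted p = 0.0349). The groups did not overlap, and Carbo+COM33 3 came nearest to the highest control library. KIF3C (ENSG00000084731, chr2:25926596-25982749), a kinesin-2 subunit best known from neurons, had 81.1, 88.2 and 96.6 CPM in Carbo+COM33, against 67.3, 71.2 and 68.3 CPM in control. All 3 libraries were above control, with a log2 fold change of 0.36 ± 0.09 (adjusted p = 0.0329). KIF3C also lay above Carbo (70.0, 72.1 and 80.7 CPM), narrowly, with a log2 fold change of 0.26 ± 0.09 (adjusted p = 0.12). The calls were lost for all 3 genes without control 2, control 3, Carbo+COM33 1 or Carbo+COM33 2, each of which left 0 kinesins called. All genes called then numbered 114, 203, 153 and 177, against 1035 with all 9 libraries. Without Carbo 2 only KIF18B was called among kinesins, beside 631 of all genes. Without control 1, KIF3C left the calls.

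KIF12 had the lowest log2 fold change against control, with 6.54, 8.71 and 9.68 CPM in Carbo+COM33, against 11.4, 15.3 and 18.2 CPM in control (−0.84 ± 0.25, edgeR adjusted p = 0.0632). The groups did not overlap. KIF1A (ENSG00000130294, chr2:240713761-240821036) was next in order but barely detected, with 3, 7 and 6 counts in Carbo+COM33, against 6, 11 and 11 counts in control (−0.74 ± 0.46, adjusted p = 0.35). KIF4A stood above control in all 3 Carbo+COM33 libraries (log2 fold change 0.39, adjusted p = 0.0942), as did KIF5B (0.24, adjusted p = 0.0918). KIF23 (0.17), KIF11 (0.15) and KIF18A (0.07) overlapped with control and had adjusted p-values from 0.65 to 0.88.

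**Figure D5:**
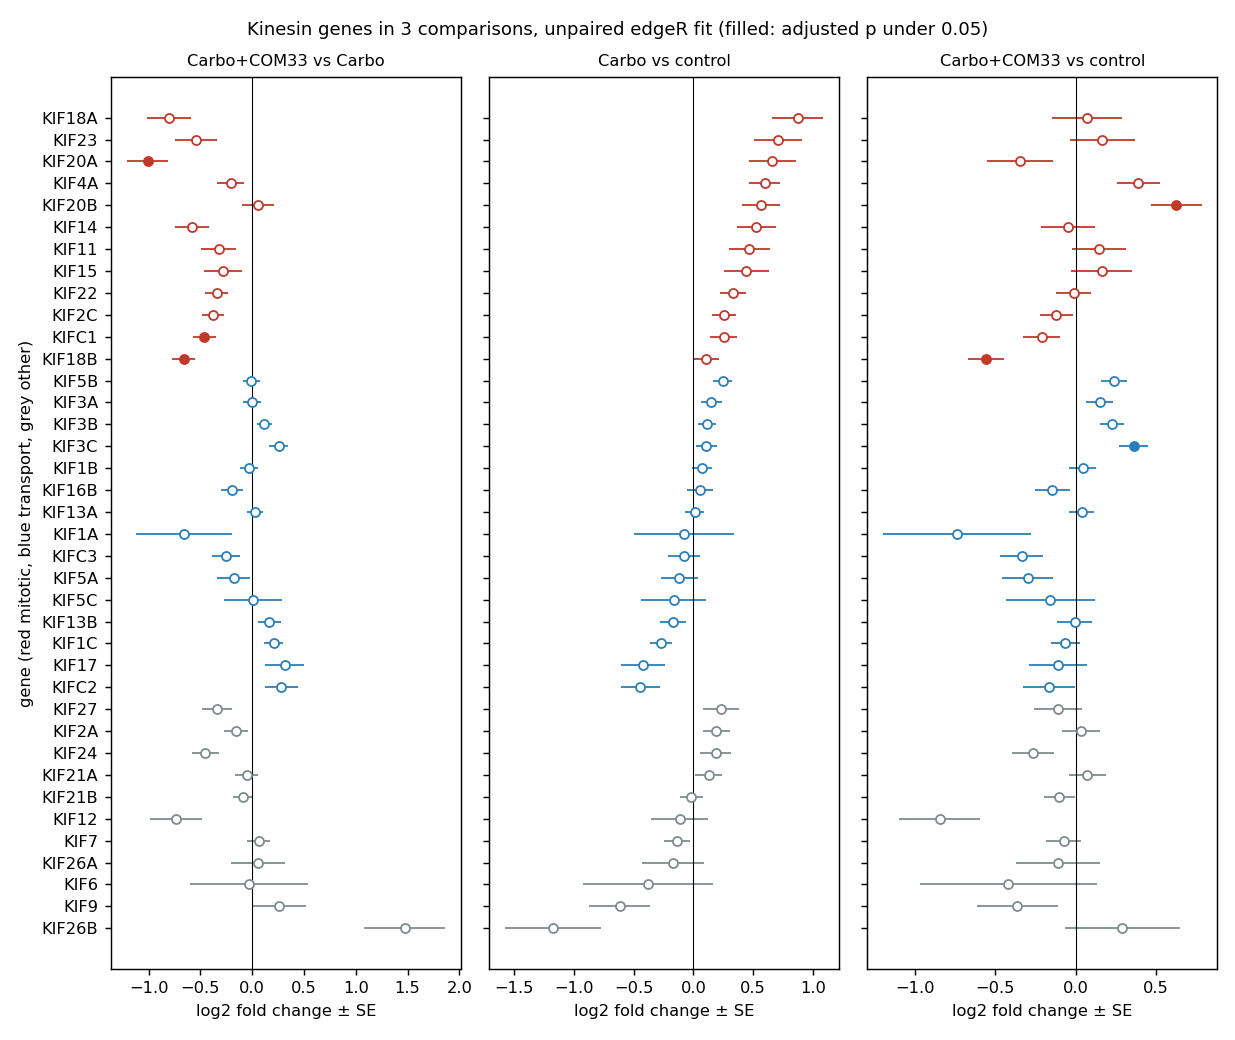
Log2 fold change ± SE (horizontal) of 38 tested kinesins (rows, red mitotic, blue transport, grey other) in the unpaired edgeR fit for Carbo+COM33 vs Carbo (left), Carbo vs control (middle) and Carbo+COM33 vs control (right); filled points have an adjusted p under 0.05. Mitotic medians are −0.42, 0.50 and 0.03 from left to right, and 3, 0 and 3 points are filled.

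The wider microtubule machinery was followed in 4 lists. Of 24 partners of mitotic kinesins (the kinetochore kinesin CENPE, spindle assembly factors, the passenger complex, centralspindlin and mitotic kinases), 23 stood above 0 on the log2 scale in Carbo against control (median log2 fold change 0.37). The unpaired edgeR fit called 0 of them (17 at an unadjusted p under 0.05, beside 2748 of all 16450 genes). The paired fit called 18 higher and 0 lower, beside the 11.2% and 11.5% of all genes. The highest were ASPM, a spindle pole protein (paired log2 fold change 0.77, adjusted p = 3.41e-06), ANLN, the cytokinetic anillin (0.75, adjusted p = 8.02e-06), CENPE (0.70), HMMR (0.69), TPX2, an activator of Aurora A (0.59), and RACGAP1, the partner of KIF23 in centralspindlin (0.58). NUMA1, a pole-focusing protein, was lowest at −0.09 (adjusted p = 0.27), and stood at 0.08 with GC and length trends taken out. In Carbo+COM33 against Carbo the same list had 24 of 24 negative log2 fold changes, a median of −0.31 and 0 calls, beside 4.96% of all genes. They ran from −0.86 for NUSAP1 (edgeR adjusted p = 0.0967) to −0.02 for INCENP. At an unadjusted p under 0.05 there were 12 of the 24, beside 3683 of all 16450 genes. Against control, Carbo+COM33 had a median of 0.08 in this list and 1 call, NUMA1 (−0.35), beside 6.29% of all genes. With GC and length trends taken out that call was lost (−0.15, adjusted p = 0.28) and the calls were 2 higher, ASPM (0.40) and PLK1, a mitotic kinase (0.35), and 0 lower, beside 3.62% and 2.29% of all genes.

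Of 23 tested partners and adaptors of transport kinesins, the paired fit of Carbo against control called 5 higher and 7 lower, beside 11.2% and 11.5% of all genes, with a median of −0.05. RHOT1, a mitochondrial adaptor, was the highest (0.28, edgeR adjusted p = 0.0012) and GRIP1, a receptor cargo adaptor, the lowest (−0.72, adjusted p = 0.00194). In Carbo+COM33 against Carbo, TRAK1, which links KIF5 motors to mitochondria, was the 1 called (−0.30), beside 4.96% of all genes. Against control, 3 of these 23 were called higher in Carbo+COM33, TRAK2 (0.38) and RHOT1 (0.35) among them, beside 3.2% of all genes. GRIP1 (−0.79) and DISC1 (−1.02) were the 2 called lower, beside 3.09% of all genes. Of 23 tested genes of dynein and dynactin, the motor complex that walks the other way, DYNC1H1, the heavy chain, was called higher in Carbo+COM33 against Carbo (0.36, adjusted p = 0.0468) and against control (0.35). DYNLT3 was higher against control too (0.41). No other gene of this list was called in these 2 comparisons, where 4.96% (against Carbo) and 6.29% (against control) of all genes were. In the paired fit of Carbo against control 1 gene of the list was higher (DCTN4) and 4 lower, which together is near the 22.7% of all genes called. Of 13 tested tubulins, the paired fit of Carbo against control called 7 higher and 0 lower, beside the same 11.2% and 11.5%, led by TUBA4A (0.41, adjusted p = 5.57e-05). With GC and length trends taken out, the paired fit called 19 mitotic partners and 7 tubulins, each of them higher, 3 transport partners higher and 1 lower, and 2 dynein and dynactin genes higher and 5 lower, beside 5.54% of all genes higher and 4.92% lower. TUBA4A was lower in Carbo+COM33 against Carbo (68.8 ± 7.21 against 124 ± 32.9 CPM, log2 fold change −0.85, adjusted p = 0.0282), and TUBA1C was higher in Carbo+COM33 against control (369 ± 67.3 against 233 ± 16.7 CPM, 0.67, adjusted p = 0.0153). Each was the 1 tubulin of 13 called in its comparison, beside 4.96% and 6.29% of all genes.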

How the data were processed

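Per the labels' protocols, RNA was poly-A selected, and libraries were read as pairs. The authors deposited counts per gene and FPKM values of the 9 libraries. Tools named per the submitters' processing notes are HISAT2, HTSeq (0.11.2) and the authors' DESeq2 (1.26.0), with the build GRCh38, and settings are not given in the sources used here. Gene coordinates are those of GENCODE release 29, in which all 32378 identifiers were found. For 32372 genes the deposited FPKM equalled count per exon length and total within 0.5%.

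Counts were kept by filterByExpr, scaled by TMM (factors 0.982 to 1.01) and fitted with edgeR 4.0.16 (quasi-likelihood, 9 libraries, 1 coefficient for each group, 6 residual df, common dispersion 0.0133) in R 4.3.3. A gene was called at a Benjamini-Hochberg adjusted p under 0.05 over 16450 genes. The SE is the size of the log2 fold change over the square root of F. CPM are counts scaled to TMM-adjusted library size. These totals and n = 3 limit the precision of low counts. All 3 comparisons use the same fit. The code was tested on simulated data.

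Across 6601 genes, same-numbered libraries deviated from their group means with correlations (mean log2 CPM over 5) of 0.825, 0.565 and 0.748 between Carbo and control, so these were also fitted in these 6 libraries with a block for the number. The highest correlation of Carbo 1 to 3 with a control library of another number was −0.446, 0.403 and 0.254. Pairing comes from these data, not from the labels.

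Alternatives were RLE size factors, no filter, DESeq2 1.42.0, blocks, offsets for GC content and exon length (splines with 5 degrees of freedom each), limma 3.58.1 on log2(FPKM + 0.1) and log2(FPKM + 1), and leaving out each library. The block fit leaving out each replicate number was added after seeing the data. Members and lists were chosen with earlier results of these data known. Full values are given for KIF11, KIF18A, KIF20A, KIF20B, KIF23, KIF1B and KIF5B, for each called member, and for the 2 highest and 2 lowest log2 fold changes of each comparison in the unpaired fit.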

Additional observations from a re-analysis of the deposited data

How the results depend on the processing

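Direction held for the mitotic medians of Carbo vs control and Carbo+COM33 vs Carbo under each alternative run, and RLE size factors left the kinesin counts at 0, 3 and 3. For Carbo vs control, called kinesins (all genes) numbered 9 (928) with no filter, 3 (132) with DESeq2, 17 (3739) with the replicate block in 6 libraries, 0 (0) with the block over 9 and 14 (1720) with GC and length offsets and the replicate block, and the block without each replicate number gave 21 (4338), 13 (1597) and 11 (2842) for replicates 1, 2 and 3. For Carbo+COM33 vs Carbo they numbered 10 (1876) with no filter, 9 (1356) with DESeq2, 7 (1554) with the replicate block over 9 libraries, 7 (1248) with GC offsets and 5 with GC offsets and block, and all genes numbered 502 with the replicate block in 6 libraries, 446 at log2(FPKM + 0.1) and 447 at log2(FPKM + 1). The GC offsets called 659 genes higher and 589 lower there, against 400 and 416 without them. For Carbo+COM33 vs control they numbered 6 (1934) with no filter, 5 (1563) with DESeq2, 6 with the replicate block in 6 libraries, 5 (1625) with the block over 9, 5 in 6 unpaired libraries, 5 (1695) with GC offsets and block, and 1 (652) and 1 (656) in the FPKM fits. Replicate numbers did not pair Carbo+COM33 with Carbo (correlations −0.0146, 0.138 and −0.388) or with control (0.085, 0.102 and −0.42), and no same-numbered pair had the highest correlation there, so these libraries share only a number. Leaving out 1 library gave 0 to 11, 0 to 15 and 0 to 6 kinesins and 0 to 1034, 120 to 2721 and 114 to 2208 genes in the 3 comparisons, mitotic medians from 0.264 to 0.636, −0.524 to −0.28 and −0.0187 to 0.135, and transport medians from −0.0952 to 0.00915, −0.0402 to 0.0853 and −0.0748 to 0.0211. Transport medians were also −0.00283 at log2(FPKM + 1) and 0.0346 in the block without replicate 3 (Carbo vs control), and 0.0417 with GC offsets and 0.0432 with GC offsets and block (Carbo+COM33 vs control). Signs turned in 8 log2 fold changes that were not called. In Carbo vs control, KIF12 was 0.132 with GC offsets, 0.12 with the block too and −0.321 to 0.133 without 1 library, and KIF1A 0.116, 0.129 and −0.301 to 0.0658. In Carbo+COM33 vs Carbo, KIF5B was 0.00236 with no filter, 0.0365 with GC offsets, 0.0347 with the block too and −0.0402 to 0.0545 without 1 library, KIF1B 0.0345, 0.0368 and −0.0664 to 0.0347, and KIF20B −0.0654 to 0.209. In Carbo+COM33 vs control, KIF17 was 0.111 with GC offsets and 0.102 with the block too, KIF18A −0.0644, −0.0665 and −0.0358 to 0.207, and KIF1B −0.0122 to 0.0893 without 1 library. Fits on fewer libraries have fewer degrees of freedom, yet some of them called more genes. The cause of these changes was not tested. A promoter window of 150 bases before the start held a CHR in 12 of 14 mitotic and 1 of 16 transport windows, beside 15.3% of all promoters. Depth limits KIF4B, KIF25, KIF1A, KIF6, KIF5C and KIF26B, each with at most 346 counts over the 9 libraries.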

Other observations

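KIF20A and KIF20B, paralogs that both act in cytokinesis, parted in Carbo+COM33, a pattern chosen after the values were seen. The ratio of KIF20B to KIF20A in CPM was 3.46, 3.44 and 2.81 in Carbo+COM33 1 to 3, 1.92, 1.62 and 1.33 in Carbo and 1.80, 1.58 and 1.59 in control. Each Carbo+COM33 library lay above all 6 others, and Carbo and control overlapped. KIF20B over KIF18B, a ratio also chosen after the values were seen, was 1.14, 1.08 and 0.676 in Carbo+COM33, 0.607, 0.522 and 0.606 in Carbo and 0.436, 0.366 and 0.452 in control. The 3 groups did not overlap in it. KIF20B had been called higher and KIF18B lower in Carbo+COM33 against control, so this ratio adds no support of its own. How many other gene pairs part in this way was not counted.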
